A study of Mus musculus with 9 samples.

Results

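Genes for 10 receptors of opioids, cannabinoids, adrenaline and serotonin were followed in ribosome-associated RNA of hippocampal CA3/CA2. This RNA was pulled down by a ribosome tag directed to parvalbumin inhibitory neurons (PV INs). The genes were Oprd1, Oprm1 and Oprl1, Cnr1, Adra1a, Adra1b and Adrb1, and Htr1a, Htr2a and Htr2c. They were chosen as a list of neuromodulator receptors and matched by symbol to the Ensembl identifiers of the count files, and all 10 were among the 15069 genes tested of 37620 listed. The mice carried PV-Cre and Rpl22 HA alleles, so that Cre expressed from the Pvalb gene tags ribosomal protein L22 with hemagglutinin (HA), and both groups shared these alleles. At 2 months of age they received lentivirus in the dentate gyrus (DG) with either non-target shRNA (shNT, 5 samples) or shRNA against Ablim3 (shRNA, 4 samples), and CA2/CA3 was taken 2 weeks later. Each sample pooled 6 mice of both sexes, so a p-value measures the spread between pools. The samples include no input RNA and no untagged control, so how much of a receptor's RNA came from PV INs was not measured. The comparison asks how the PV IN translatome differs when Ablim3, described as a brake on mossy fiber filopodia onto PV INs, is lowered in DG mossy fibers.

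All 10 proteins are G protein-coupled receptors. The delta (Oprd1), mu (Oprm1) and nociceptin (Oprl1) opioid receptors, the cannabinoid receptor CB1 (Cnr1) and the serotonin receptor 5-HT1A (Htr1a) couple to Gi/o proteins, which lower cyclic AMP, open inwardly rectifying potassium channels and reduce transmitter release. The alpha-1 adrenergic receptors (Adra1a, Adra1b) and the serotonin receptors 5-HT2A and 5-HT2C (Htr2a, Htr2c) couple to Gq and phospholipase C, and the beta-1 adrenergic receptor (Adrb1) couples to Gs and raises cyclic AMP. In the hippocampus CB1 is best known from the terminals of cholecystokinin (CCK) basket cells, and delta opioid receptors are known from PV INs.

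Between 18281719 and 34578837 reads fell on genes in each sample. The share of uniquely aligned reads outside annotated exons was 9.77% to 11.3% in 4 shNT samples and 18.6% in shNT replicate 2, and 12.4% and 12.5% in shRNA replicates 3 and 2, 19.8% in shRNA replicate 1 and 27.2% in shRNA replicate 4. The 3 libraries over 15% (shNT replicate 2, shRNA replicates 1 and 4) also had the highest summed levels of 6 nuclear-retained noncoding RNAs, 13650 to 19010 CPM against 1671 to 3868 CPM in the others. Results are given with and without them where that changes a call. Pvalb, the defining marker of the tagged cells, was present throughout, at 678 to 1375 CPM (read counts scaled to a common library size) with shNT and 310 to 705 CPM with shRNA, and the summed level of 10 PV IN markers was 4836 to 7961 CPM and 2892 to 7036 CPM. Ablim3 stood at 12.1 to 22.6 CPM and 13.7 to 21.7 CPM (log2 fold change 0.13, 95% interval -0.37 to 0.64, FDR = 0.701), which does not check the knockdown, since that was made in DG and this RNA came from CA3/CA2.

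Of the 10 receptors, Cnr1 rose in the shRNA samples and the other 9 did not pass the threshold, which was a false discovery rate (FDR) under 0.05 with at least a 1.5-fold change in edgeR's quasi-likelihood test. Over all genes tested 1.75% were called, 1.74% higher and 0.0133% lower, so 1 call among 10 genes is a single event and not a property of the list. Htr1a and Htr2c had log2 fold changes near that of Cnr1 with FDR values under 0.1, a limit that 14.7% of all genes passed on the higher side. The groups did not overlap, with shRNA higher, in 2 receptors (Cnr1 and Htr2c) and in 8.97% of all genes. They did so with shRNA lower in 0 receptors and in 6.68% of all genes. The log2 fold change was positive in 7 of the 10 with a median of 0.09, against 57.9% of all genes and a median of 0.11.

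**Figure D1:**
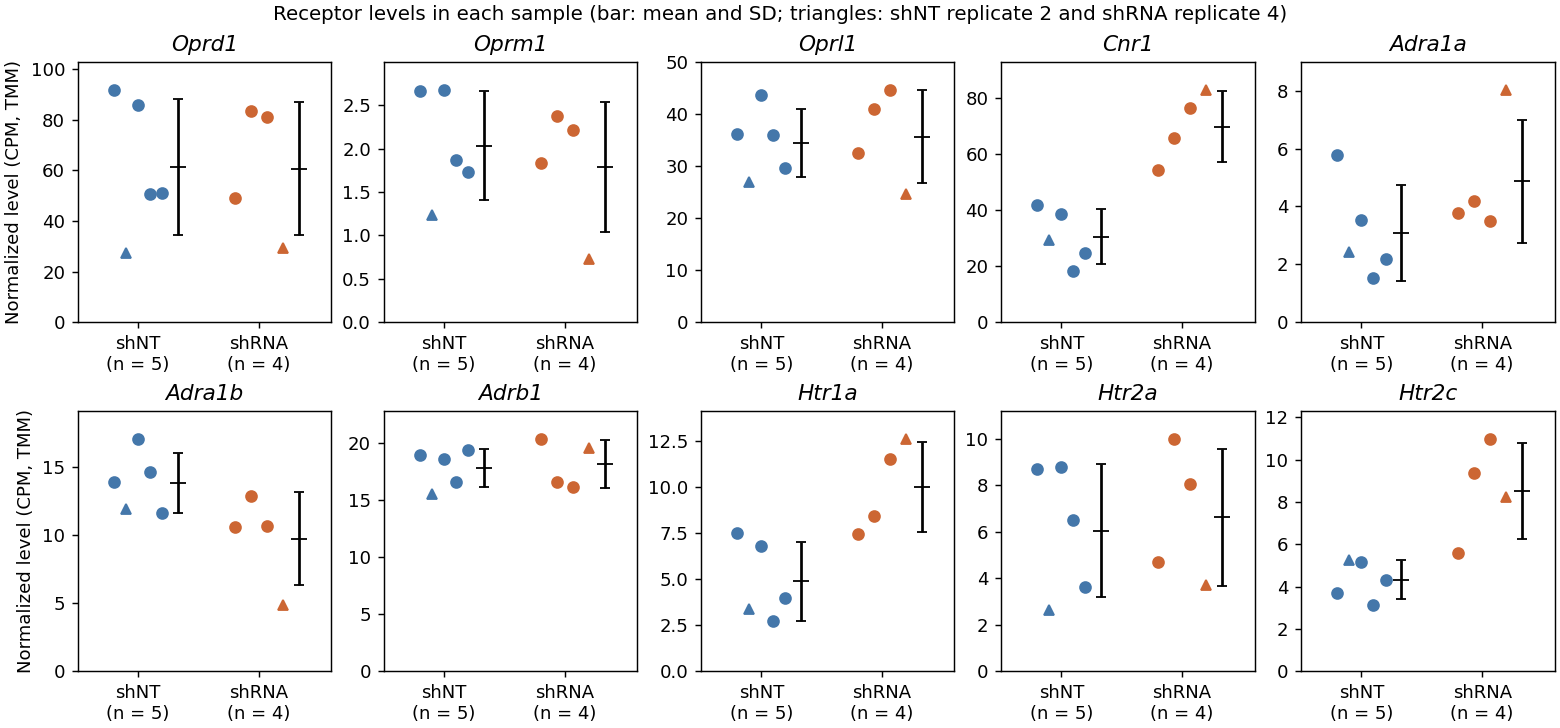
Levels of the 10 receptors (CPM scaled by TMM, linear axes from 0) in each of 5 shNT and 4 shRNA samples, with mean and SD at the right of each group and triangles for shNT replicate 2 and shRNA replicate 4. The groups of Cnr1 (18.3 to 41.7 against 54.2 to 82.7 CPM) and Htr2c (3.13 to 5.23 against 5.58 to 10.97 CPM) do not overlap, and those of the other 8 receptors do.

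Cnr1 (ENSMUSG00000044288, mm9 chromosome 4 from 34011568 to 34035806, plus strand), the gene for CB1, had 41.7, 29.4, 38.4, 18.3 and 24.6 CPM in shNT replicates 1 to 5. In shRNA replicates 1 to 4 it had 54.2, 65.6, 76.2 and 82.7 CPM. The lowest shRNA sample was above the highest shNT sample, and shRNA replicate 4, which has the most reads outside exons, was the highest of all. Its mean rose from 30.5 ± 9.67 CPM (SD, n = 5) with shNT to 69.7 ± 12.5 CPM (SD, n = 4) with shRNA, a 2.28-fold difference (log2 fold change 1.19, standard error 0.23, 95% interval 0.68 to 1.70, FDR = 0.0404, edgeR quasi-likelihood test). These values rest on 362 to 1847 reads of Cnr1 per sample.

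The direction of Cnr1 held in every alternative fit, but its side of the threshold did not. In the reported fit the lowest FDR of any gene was 0.0403, close to that of Cnr1. Fits without 1 sample gave log2 fold changes from 0.98 to 1.33 and FDR from 0.0195 to 0.169, and the call was lost without shNT replicate 3, 4 or 5 (FDR 0.0744, 0.155 and 0.169) and without shRNA replicate 1, 3 or 4 (FDR 0.0860, 0.121 and 0.0611). No gene at all was called without shNT replicate 3, 4 or 5 or without shRNA replicate 1 or 3. Without shRNA replicate 4, 0.978% of all genes were called. Without shNT replicate 2 and shRNA replicate 4 together Cnr1 was called (log2 fold change 1.10, FDR = 0.0399). Without all 3 libraries over 15% outside exons, which leaves 2 shRNA samples, it was not (1.18, FDR = 0.138), and no gene was, with 3118 genes at an unadjusted p under 0.05. Taking the share outside exons as a covariate, it was not called either (1.15, FDR = 0.0831). By their names the samples fall into groups of 6 and 3, and the sources used here do not give whether these are batches. Within the larger name set mean log2 CPM was 5.18 in 3 shNT and 6.02 in 3 shRNA samples, a difference of 0.84, and in the smaller set it was 4.41 in 2 shNT samples and 6.37 in 1 shRNA sample, a difference of 1.96.

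Markers of other interneurons were read beside Cnr1, because CCK cells are its best known hippocampal source. Of 9 matched markers Reln and Adarb2 were called higher (log2 fold changes 1.16 and 1.62, FDR 0.0414 and 0.0497), and Cck itself had a log2 fold change of -0.47 (FDR = 0.161). Cck was at 84.1 to 135 CPM with shNT and 47.9 to 100.1 CPM with shRNA. Over all genes tested 1.74% were called higher. Over the 9 markers 6 had positive log2 fold changes (median 0.56). In 4 of them, Reln, Adarb2, Calb2 and Prox1, all shRNA samples lay above the shNT samples, as in 8.97% of all genes. Prox1 is also on the list of DG granule cell markers. Sst and Npy had log2 fold changes of -0.45 and -0.50 (FDR 0.254 and 0.273). Without shRNA replicate 4 Reln and Adarb2 were not called (1.01 and 1.27, FDR 0.0654 and 0.0970). The summed level of the 9 was 529 to 911 CPM and 353 to 721 CPM, of which Sst and Npy, markers of other interneurons than CCK cells, are the largest terms, and none was at 0 in any sample. The part of other interneurons in the Cnr1 result was not tested. In bulk RNA of this kind, fewer cells of a type and less RNA per cell cannot be told apart.

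Htr1a (ENSMUSG00000021721, mm9 chromosome 13 from 106233773 to 106238213, plus strand), an intronless gene for the Gi/o-coupled receptor 5-HT1A, had 7.50, 3.40, 6.83, 2.72 and 3.98 CPM in the shNT samples. In the shRNA samples it had 7.48, 8.46, 11.6 and 12.6 CPM. The groups touch, since shRNA replicate 1 lay just under shNT replicate 1. Its mean was 4.89 ± 2.14 CPM with shNT (SD, n = 5) and 10.03 ± 2.45 CPM with shRNA (SD, n = 4), and the log2 fold change was 1.03 (standard error 0.31, 95% interval 0.34 to 1.72, FDR = 0.0686). Of the fits without 1 sample it passed only in that without shNT replicate 1 (1.24, FDR = 0.0447), and the FDR of these fits ran up to 0.178. It was not called without shRNA replicate 4, its highest sample (0.89, FDR = 0.143). Without the 3 libraries over 15% outside exons it was not called either (0.89, FDR = 0.214).

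Htr2c (ENSMUSG00000041380, mm9 chromosome X from 143397056 to 143631820, plus strand), for the Gq-coupled receptor 5-HT2C, had 3.70, 5.23, 5.18, 3.13 and 4.33 CPM with shNT. With shRNA it had 5.58, 9.35, 10.97 and 8.21 CPM. The groups did not overlap, although shRNA replicate 1 lay close to the highest shNT samples. The mean with shNT was 4.31 ± 0.919 CPM (SD, n = 5) and that with shRNA 8.53 ± 2.27 CPM (SD, n = 4). The fit gave Htr2c a log2 fold change of 0.98 (standard error 0.24, 95% interval 0.45 to 1.51, FDR = 0.0558), and it passed without shNT replicate 2 and shRNA replicate 4 together (1.08, FDR = 0.0451) but not without all 3 libraries over 15% outside exons (1.28, FDR = 0.127). With an offset for a trend with exon length it was 0.55 (FDR = 0.166).

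Choroid plexus expresses Htr2c at very high levels, so its markers were read beside this gene. The summed level of 6 markers was 3.38 to 6.55 CPM with shNT and 8.28 to 12.8 CPM with shRNA. Ttr, the defining transcript of that tissue, was at 0.303 to 1.82 CPM with shNT and 1.08 to 2.27 CPM with shRNA, and Aqp1 and Kcnj13 were each at 0 in at least 1 sample. Kl and Clic6 had shRNA samples all above the shNT samples, as in 8.97% of all genes. Their log2 fold changes were 0.96 and 2.13 (FDR 0.0692 and 0.0662, not called). The part of choroid plexus in the Htr2c values was not tested.

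With DESeq2, edgeR's likelihood ratio test or limma voom, the same 3 receptors Cnr1, Htr1a and Htr2c were called higher and no other receptor was called. These tests called 10.6%, 11.2% and 15.3% of all genes higher and 5.87%, 3.6% and 4.1% lower. The FDR of Cnr1 was 3.4e-04, 2.8e-04 and 6.1e-04, that of Htr1a 0.0203, 0.0266 and 0.00428, and that of Htr2c 0.00930, 0.0115 and 0.00188.

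**Figure D2:**
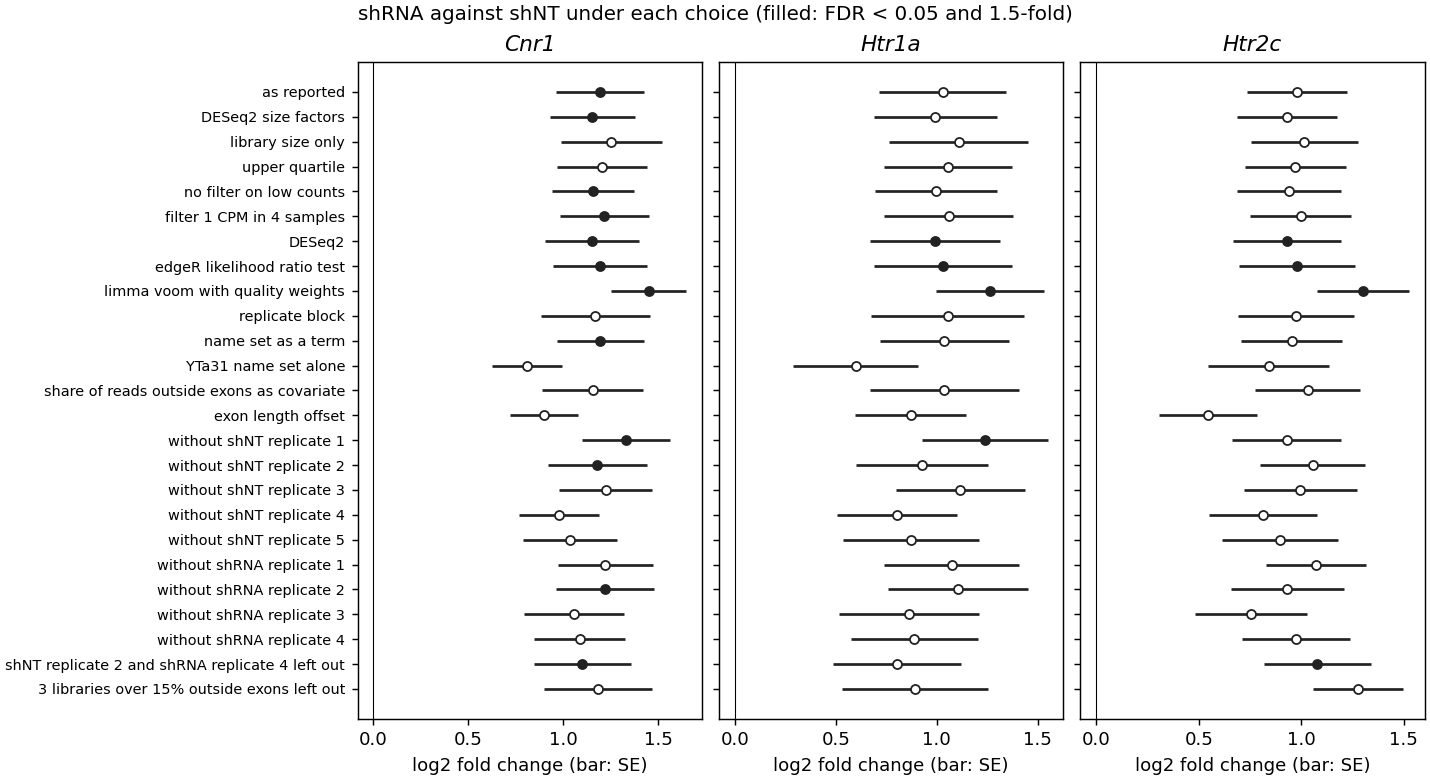
Log2 fold changes of Cnr1, Htr1a and Htr2c, shRNA against shNT, with standard errors (bars), under the reported fit and each alternative; YTa31 is the larger name set, and filled points pass an FDR under 0.05 and 1.5-fold. All points lie above 0, from 0.81 to 1.45 for Cnr1, 0.60 to 1.26 for Htr1a and 0.55 to 1.30 for Htr2c.

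The promoters of these 3 genes and of Oprd1, the most abundant receptor per length, are shown to let their base composition be compared. Each is the 250 bases before a RefSeq start (GRCm38.p6 table), found once on its chromosome of the mm9 genome, written 5′ to 3′ on the gene's strand. Capitals mark GC boxes (GGGCGG on either strand, found in 32.7% of 32841 such windows) and CRE half-sites (TGACG on either strand, 17.8%), of which these 4 windows hold none. For Cnr1 the table lists 3 starts and the first is shown, at chr4:34010989-34011238.
Cnr1: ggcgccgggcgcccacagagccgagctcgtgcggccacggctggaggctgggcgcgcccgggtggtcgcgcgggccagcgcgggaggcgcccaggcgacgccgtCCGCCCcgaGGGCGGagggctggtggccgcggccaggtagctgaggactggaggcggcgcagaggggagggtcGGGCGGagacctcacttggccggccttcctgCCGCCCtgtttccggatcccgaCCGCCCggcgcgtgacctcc
Htr1a, chr13:106233523-106233772: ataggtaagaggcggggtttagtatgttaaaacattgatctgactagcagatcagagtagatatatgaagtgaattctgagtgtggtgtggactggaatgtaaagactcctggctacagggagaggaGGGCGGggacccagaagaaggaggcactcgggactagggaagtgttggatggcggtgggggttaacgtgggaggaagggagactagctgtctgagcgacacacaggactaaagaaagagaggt
Htr2c, chrX:143396806-143397055: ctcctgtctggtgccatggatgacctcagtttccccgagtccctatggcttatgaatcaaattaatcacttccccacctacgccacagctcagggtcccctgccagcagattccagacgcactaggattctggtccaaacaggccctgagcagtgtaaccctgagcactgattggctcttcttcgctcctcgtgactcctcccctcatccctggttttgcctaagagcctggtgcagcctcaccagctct
Oprd1, chr4:131700402-131700651, minus strand: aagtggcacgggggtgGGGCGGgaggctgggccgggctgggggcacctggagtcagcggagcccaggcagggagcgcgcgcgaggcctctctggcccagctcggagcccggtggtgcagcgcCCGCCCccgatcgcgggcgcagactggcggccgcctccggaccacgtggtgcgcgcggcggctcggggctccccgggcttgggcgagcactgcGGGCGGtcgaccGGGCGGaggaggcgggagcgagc
The printed Cnr1 and Oprd1 windows were rich in G and C (79.2% and 80%, with 36 and 34 CpG dinucleotides and 5 and 4 GC boxes). The windows of the other Cnr1 starts had 68.8% and 49.2% with 28 and 5 CpG dinucleotides and 0 GC boxes in each. The Htr1a and Htr2c windows, at 50.4% and 55.6% with 6 and 5 CpG dinucleotides, were near the median of all windows (52.4% and 6). A match is a description of these letters and not of factor binding. Adra1a was not in the table.

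Oprd1, Oprl1 and Oprm1, the opioid receptors followed here, did not differ between the groups beyond the spread between samples. Oprd1 (ENSMUSG00000050511, mm9 chromosome 4 from 131666641 to 131700401, minus strand), the delta receptor, had 91.9, 27.5, 85.9, 50.8 and 51.0 CPM with shNT. With shRNA it had 49.1, 83.6, 81.2 and 29.2 CPM. In each group the lowest value was that of the library with the largest share outside exons, shNT replicate 2 and shRNA replicate 4, and shRNA replicate 1 was the next lowest shRNA sample. Its groups overlapped almost fully. The log2 fold change was -0.02 (95% interval -0.83 to 0.80, FDR = 0.979). Taking the share outside exons as a covariate gave 0.62 (standard error 0.24, FDR = 0.130).

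Oprl1 (ENSMUSG00000027584, mm9 chromosome 2 from 181449721 to 181455690, plus strand), the nociceptin receptor, varied less. It had 36.2, 27.0, 43.8, 36.0 and 29.6 CPM with shNT, and 32.5, 41.0, 44.7 and 24.7 CPM with shRNA. The same libraries were again the lowest of their groups. Its log2 fold change was 0.05 (95% interval -0.39 to 0.48, FDR = 0.877).

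Oprm1 (ENSMUSG00000000766, mm9 chromosome 10 from 3308332 to 3588035, minus strand), the mu receptor, was near the limit of the count filter. It had 2.67, 1.24, 2.68, 1.87 and 1.73 CPM with shNT, and 1.83, 2.38, 2.22 and 0.722 CPM with shRNA, from 16 to 78 reads per sample. Here too shNT replicate 2 and shRNA replicate 4 were the lowest. Its log2 fold change was -0.19 (95% interval -1.02 to 0.64, FDR = 0.739). Exons of Ipcef1 cover 1.18% of its exon bases, and counting without strand cannot tell the 2 genes apart there. Within each sample the level of Oprd1 per kb of exon was 44.9 to 82.0 times that of Oprm1. This ratio depends on the annotation, whose merged exons hold 4021 bases from 1 transcript for Oprd1 and 8156 bases from 35 for Oprm1.

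Among the adrenergic receptors Adrb1 (ENSMUSG00000035283, mm9 chromosome 19 from 56796862 to 56799352, plus strand) was the steadiest of the 10. It had 18.95, 15.6, 18.7, 16.6 and 19.5 CPM with shNT and 20.4, 16.6, 16.1 and 19.6 CPM with shRNA. The highest sample was 1.31 times the lowest, and of the 3 libraries over 15% outside exons shNT replicate 2 was the lowest and shRNA replicate 1 the highest. Its log2 fold change was 0.03 (95% interval -0.28 to 0.33, FDR = 0.907), the narrowest interval of the 10.

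Adra1b (ENSMUSG00000050541, mm9 chromosome 11 from 43588108 to 43714712, minus strand) had the lowest log2 fold change of the 10. It had 13.9, 11.9, 17.1, 14.6 and 11.6 CPM with shNT, and 10.6, 12.8, 10.7 and 4.87 CPM with shRNA. The groups overlapped through shRNA replicate 2, and shRNA replicate 4 was the lowest sample. The log2 fold change was -0.50 (95% interval -1.06 to 0.05, FDR = 0.182) and -0.29 without shRNA replicate 4.

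Adra1a (ENSMUSG00000045875, mm9 chromosome 14 from 67254088 to 67390005, plus strand), for a receptor of the same Gq-coupled class, had a positive value. It had 5.76, 2.43, 3.53, 1.51 and 2.20 CPM with shNT, and 3.76, 4.19, 3.48 and 8.03 CPM with shRNA. The high values were those of shNT replicate 1 and shRNA replicate 4. Its log2 fold change was 0.65 (95% interval -0.22 to 1.52, FDR = 0.255). Without shRNA replicate 4 it was 0.29, and the difference in mean log2 CPM was 0.05 within the larger set of sample names and 2.09 in the smaller, where shRNA replicate 4 is the only shRNA sample. That library also had the highest summed level of 8 astrocyte markers (4296 CPM, against 812 to 1039 CPM in the other shRNA samples), whose part in the Adra1a value was not tested.

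Htr2a (ENSMUSG00000034997, mm9 chromosome 14 from 75040647 to 75106666, plus strand), for the Gq-coupled receptor 5-HT2A, had groups that overlapped, unlike Htr2c. It had 8.71, 2.62, 8.78, 6.51 and 3.61 CPM with shNT and 4.69, 9.99, 8.07 and 3.70 CPM with shRNA. Low values were found in shNT replicates 2 and 5 and in shRNA replicates 1 and 4. The log2 fold change was 0.13 (95% interval -0.76 to 1.01, FDR = 0.839).

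**Figure D3:**
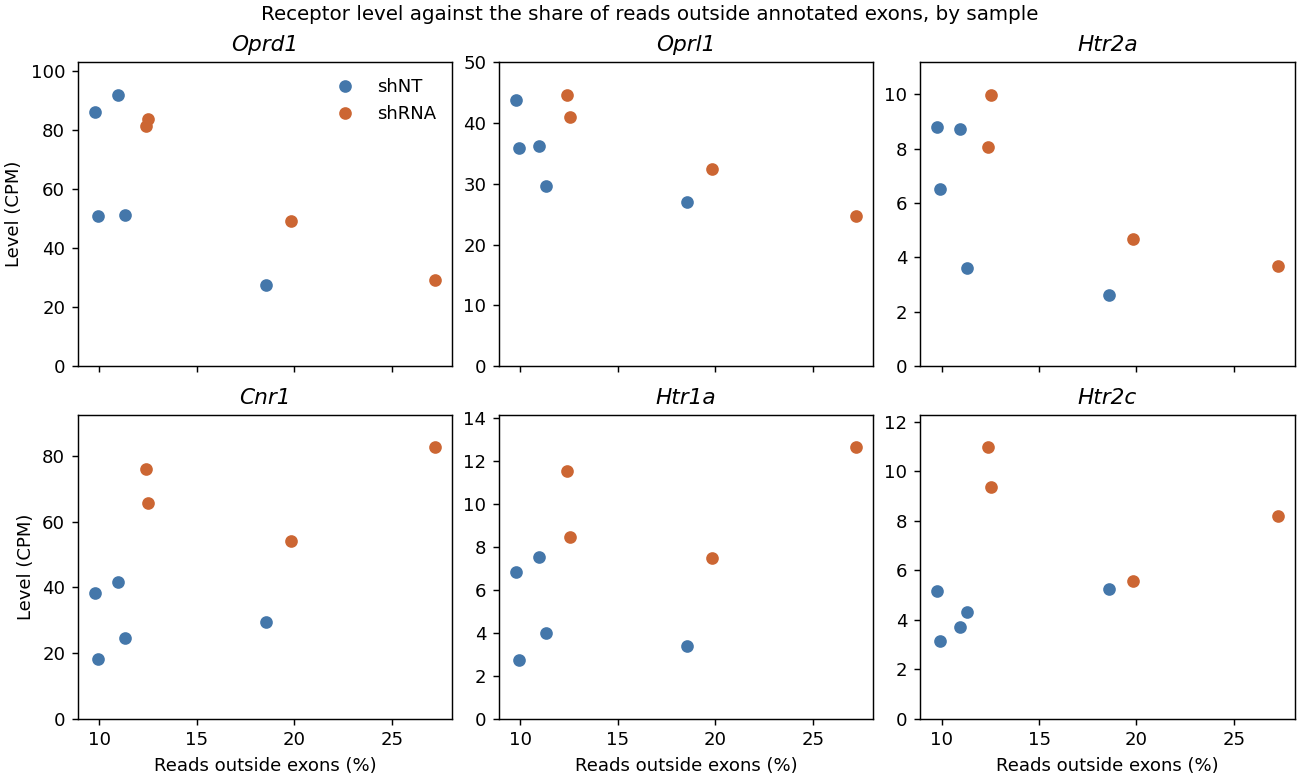
Level (CPM, TMM, linear axes from 0) of 6 receptors against the share of uniquely aligned reads outside annotated exons (%), 1 point per sample, 5 shNT and 4 shRNA. Oprd1 is at 27.5 to 49.1 CPM in the 3 samples with 18.6% to 27.2% and at 50.8 to 91.9 CPM in the others, while for Oprl1 and Htr2a shNT replicate 5, at 11.3%, is lower than shRNA replicate 1, at 19.8%. In Cnr1 every shRNA sample lies above every shNT sample. At the lower shares the groups have no common range (9.77% to 11.3% with shNT, 12.4% and 12.5% with shRNA), so group and share cannot be told apart there.

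Likeness between receptors was described by Pearson's r of log2 CPM over the 9 samples, which share libraries and depth. The group difference was not removed, and it adds to r between receptors that were both higher with shRNA. Oprd1 had r of 0.918 with Oprm1, 0.903 with Oprl1 and 0.924 with Htr2a. Cnr1 had r of 0.964 with Htr1a, 0.866 with Htr2c and 0.821 with Adra1a, and 0.140 with Oprd1. Adrb1 had no r above 0.441 with any of the other receptors. Among 10942 or 10943 other genes with a mean of at least 5 CPM, those most like Cnr1 were Kit (r = 0.993) and Reln (r = 0.990), and those most like Oprd1 were Rims3 (0.989) and Cpeb3 (0.988). Tle3 (0.990) and Srebf2 (0.986) were most like Htr1a, Tnfaip8l3 (0.970) and the receptor gene Adra1d (0.959) most like Htr2c, and Mta3 (0.989) and Arhgef3 (0.988) most like Htr2a. Oprm1 was most like Mknk1 (0.992) and Syngr1 (0.992), Oprl1 like Ano4 (0.980) and Nrxn3 (0.978), Adra1a like Lrp8 (0.963) and Mdm4 (0.956), and Adra1b like Ccdc91 (0.985) and Bean1 (0.982). Adrb1 had the weakest best matches, Saal1 (0.918) and Dhdh (0.915). These names are a description only.

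Levels between genes were compared per kb of exon (RPKM). They are levels in the immunoprecipitated RNA, and enrichment in PV INs was not measured. The same libraries held markers of other cells, such as Slc17a7 at 140 to 516 CPM and Gfap at 101 to 1058 CPM. Exon length merges all annotated transcripts of a gene, so the order depends on the annotation. In the shNT samples Oprd1 was highest, with 15.3 ± 6.70 RPKM (SD, n = 5), followed by Oprl1 with 9.20 ± 1.74 RPKM and Adrb1 with 7.16 ± 0.673 RPKM. Cnr1 followed with 4.73 ± 1.501 RPKM and Adra1b with 4.09 ± 0.656 RPKM. Htr2a had 2.04 ± 0.960 RPKM and Htr1a 1.10 ± 0.482 RPKM. Under these came Htr2c with 0.462 ± 0.0985 RPKM, Adra1a with 0.354 ± 0.190 RPKM and Oprm1 with 0.249 ± 0.0768 RPKM. Neighbours were separated, with no overlap of their ranges, only between Adra1b and Htr2a and between Htr1a and Htr2c. With shRNA, Cnr1 took the second place with 10.8 ± 1.94 RPKM (SD, n = 4), between Oprd1 (15.1 ± 6.54 RPKM) and Oprl1 (9.52 ± 2.39 RPKM), and the ranges of these 3 overlapped. Oprd1 lay at the 73.8 percentile of all genes tested and Oprm1 at the 8.23 percentile.

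**Figure D4:**
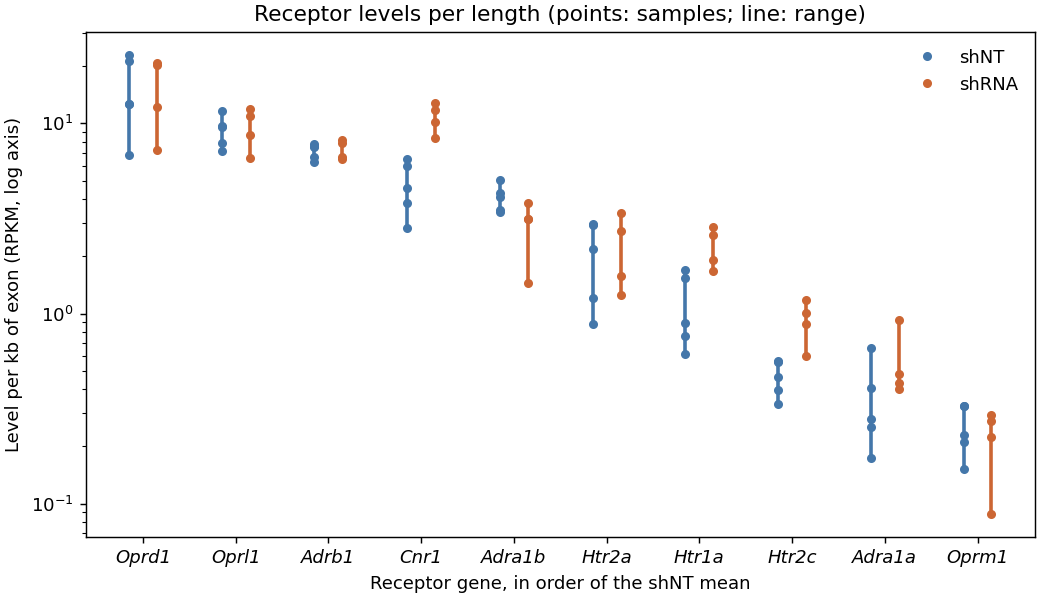
Level per kb of exon (RPKM, log axis) of the 10 receptors, ordered by the shNT mean, with a point per sample (5 shNT, 4 shRNA) and a line for the range of each group. Oprd1 leads at a mean of 15.3 RPKM and Oprm1 is last at 0.249 RPKM, and the 2 groups of Cnr1 and of Htr2c are separate.

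The other 19 receptors of the same families were read as a list, of which 14 passed the filter on low counts. None was called in either direction by edgeR's quasi-likelihood test, 3 were higher at an unadjusted p under 0.05 and 0 lower, and the median log2 fold change was 0.55 (0.19 without shRNA replicate 4). Over all genes 20.7% were higher and 13.4% lower at that unadjusted p. The 3 were Adra1d, an alpha-1 receptor, from 6.41 ± 0.453 to 9.47 ± 1.30 CPM (log2 fold change 0.56, FDR = 0.0655), Adra2a, an alpha-2 receptor coupled to Gi/o (0.72, FDR = 0.0736), and Htr4, coupled to Gs (0.74, FDR = 0.0784). Htr7, another Gs-coupled receptor, had 39.2 ± 5.97 CPM and 31.7 ± 8.08 CPM (log2 fold change -0.31, FDR = 0.270). Htr1d had the lowest p among those lower (-0.57, FDR = 0.268). The groups did not overlap, with shRNA higher, in 2 of the 14 (Adra1d and Oprk1) and in 8.97% of all genes. With shRNA lower this held for 0 of the 14 and 6.68% of all genes. Oprk1, a further opioid receptor, had 1.06 to 1.61 CPM with shNT and 1.85 to 2.03 CPM with shRNA (log2 fold change 0.56, FDR = 0.153). The 5 not tested were Cnr2, Adra2b, Htr1b, Htr2b and Htr3b, with 7 to 37 reads each over all 9 samples.

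**Figure D5:**
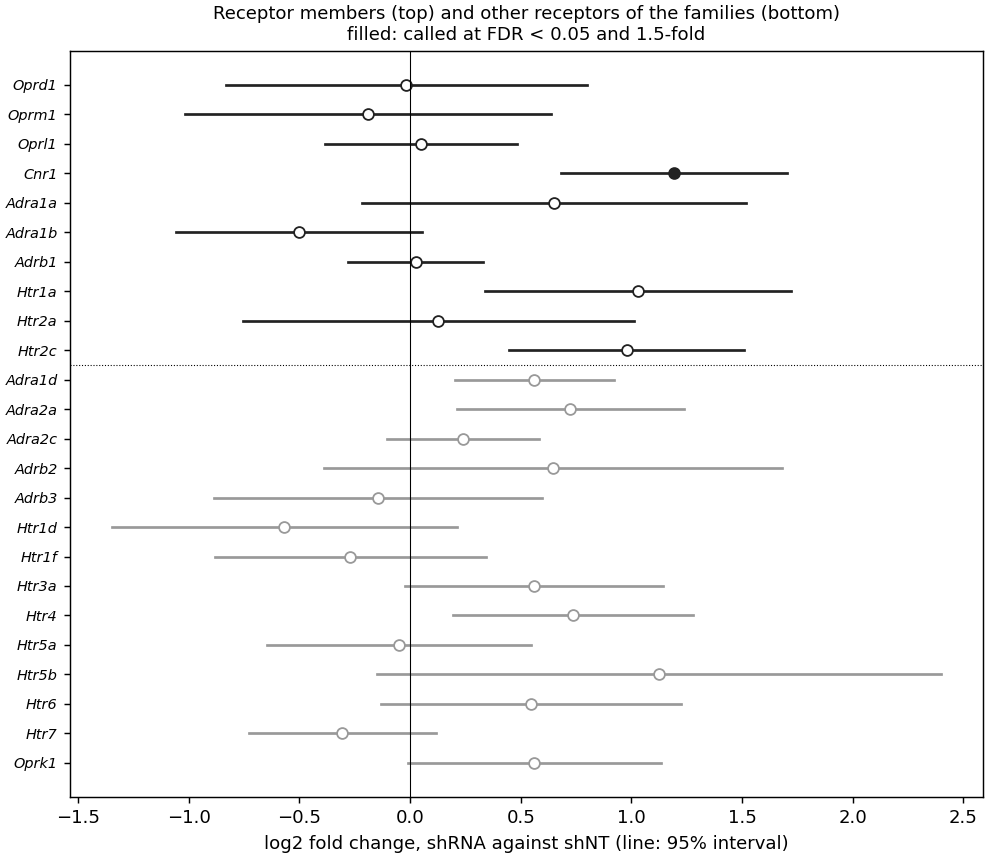
Log2 fold change, shRNA against shNT, with 95% intervals for the 10 receptors (top, black) and 14 further receptors of their families (bottom, grey); the filled point passes an FDR under 0.05 and 1.5-fold. Cnr1 at 1.19 is the filled point, and the intervals of Htr1a and Htr2c lie above 0 without passing.

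Genes that make or remove the ligands were not called in either direction by edgeR's quasi-likelihood test. None of 4 opioid peptide precursors was called (median log2 fold change -0.06), and Pdyn (0.68, FDR = 0.249) and Pnoc (-0.36, FDR = 0.319) had the lowest p in each direction. Of 8 genes of endocannabinoid synthesis and breakdown none was called either (median -0.08). Faah, which breaks down anandamide, had 78.8 to 91.3 CPM with shNT and 106 to 151 CPM with shRNA without overlap (0.55, FDR = 0.0544). Mgll, which breaks down 2-arachidonoylglycerol, had 286 to 345 CPM and 202 to 274 CPM, also without overlap (-0.35, FDR = 0.118). These 2 degrading enzymes had opposite signs. Of all genes 8.97% had no overlap with shRNA higher and 6.68% with shRNA lower. None of 6 tested monoamine genes of 10 was called (median 0.32, and -0.17 without shRNA replicate 4), and Maob, which breaks down monoamines, had the lowest p among those higher (1.16, FDR = 0.0920). The Maob value rested on shRNA replicate 4, at 32.2 CPM against 6.97 to 8.60 CPM in the other shRNA samples and 4.80 to 7.72 CPM with shNT, and it was 0.32 without that library (FDR = 0.301). The transporters Slc6a4 and Slc6a2, which mark serotonin and noradrenaline neurons, had 1 and 0 reads over all samples. Other genes of monoamine synthesis and transport had reads, with 2030 for Slc18a2, 1107 for Ddc, 280 for Tph2, 88 for Th and 29 for Dbh.

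Among effectors and regulators 1 gene was called. Of all genes tested 1.75% were called, and in 8.97% the groups did not overlap with shRNA higher. Pde4b, a phosphodiesterase that breaks down cyclic AMP, rose from 22.7 ± 4.13 to 49.5 ± 14.4 CPM (log2 fold change 1.13, standard error 0.20, FDR = 0.0403), without overlap of the groups, and was 1 of 13 genes in the Gs and cyclic AMP list (median 0.16). It was not called without the 3 libraries over 15% outside exons (0.97, FDR = 0.127). Pde4d (ENSMUSG00000074661) had the lowest p of that list among those lower (-0.62, FDR = 0.131), but the annotation gives this symbol to a second identifier with a log2 fold change of 0.24 (FDR = 0.373). None of 10 Gi/o genes (median -0.02), 11 Gq genes (median 0.24) or 12 receptor kinases, arrestins and RGS proteins (median 0.04) was called by edgeR's quasi-likelihood test, where 2, 3 and 3 were higher and 0, 0 and 1 lower at an unadjusted p under 0.05. The lowest p values were those of Kcnj6, a potassium channel opened by Gi/o (0.68, FDR = 0.0655), Plcb1, a phospholipase C (0.60, FDR = 0.0689), and Rgs12 (0.94, FDR = 0.0773). In the other direction they were those of Gnb5 (-0.38, FDR = 0.204), Gna14 (-0.38, FDR = 0.331) and Rgs2 (-0.63, FDR = 0.0854). The Rgs12 value rested largely on shRNA replicate 4, at 62.8 CPM against 24.5 to 28.2 CPM in the other shRNA samples. Without that library it was 0.48 (FDR = 0.221).

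Marker lists of other cells had positive median log2 fold changes. Over all genes tested 1.74% were called higher. Of 10 CA3 and CA2 pyramidal markers, Grik4 was called higher (log2 fold change 1.17, FDR = 0.0403), with a list median of 0.66 and summed levels of 812 to 1744 CPM with shNT and 1801 to 2243 CPM with shRNA. Of 7 DG granule cell markers Neurod1 was called (1.23, FDR = 0.0472), with a median of 0.96 and sums of 67.6 to 123 and 138 to 210 CPM. Of 4 oligodendrocyte precursor markers Pdgfra and Olig2 were called, with sums of 35.2 to 63.6 and 68.9 to 99.1 CPM. None of the astrocyte, oligodendrocyte, microglia, endothelial and choroid plexus markers was called, and their medians were 1.35, 0.79, 0.49, 0.50 and 0.79. Without shRNA replicate 4 these medians were 0.43, 0.65, 0.43, -0.91 and 0.72, so the endothelial median changed sign, and Neurod1, Pdgfra and Olig2 were not called (FDR 0.0918, 0.0555 and 0.0630) while Grik4 was. Without all 3 libraries over 15% outside exons Grik4 was not called either (1.11, FDR = 0.127). All 10 PV IN markers had negative log2 fold changes (median -0.32, and -0.11 without shRNA replicate 4), and Pvalb was the lowest in p (-0.92, FDR = 0.0678). Nuclear-retained noncoding RNAs had a median of 1.07 (0.43 without shRNA replicate 4) and sums of 1671 to 15040 and 3643 to 19010 CPM. No marker of these lists was at 0 in any sample apart from those of the choroid plexus, and the part of these cells in the receptor results was not tested.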

How the data were processed

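RNA was immunoprecipitated with anti-HA beads from CA2/CA3 of pooled mice, and libraries were made with the SMARTer v4 kit. Per the study's methods the authors used STAR, with mm9 transcripts as the target, for 50-base reads, then HTSeq 0.6.0 without strand for counts per gene, and the deposited counts are not normalized. HTSeq summary lines were left out of library sizes. Names, positions and exon lengths come from GENCODE vM1 (mm9), which named 37205 of 37620 identifiers, and Lamp5 of the lists was not matched.

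A gene was tested if any sample reached 1 CPM (15069 genes) with edgeR 4.0.16 in R 4.3.3, by TMM and the quasi-likelihood test with group as the only term, and Benjamini-Hochberg adjustment. The lost sign before the study's CPM value was read as a minimum. Levels are CPM after TMM, or RPKM per kb of merged exon where genes are compared, and log2 CPM uses a prior count of 2. Alternatives used DESeq2 1.42.0 and limma 3.58.1, other normalizations and filters, blocks, covariates and samples left out. The tests were checked on simulated counts. Replicates of a group all differed beyond counting noise. Members and gene lists were chosen with earlier results of these data known. Named genes were the 10 receptors, called genes and the lowest p in each direction of each list, and the 2 genes most like each receptor. Ablim3 and Pvalb were named as checks, and others were chosen after their values were seen. A gene that this rule names is not reported here.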

Additional observations from a re-analysis of the deposited data

Results flagged for a closer look

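A search for single samples lying apart covered 44 sets of values within a group (receptor levels, marker sums and the share of reads outside exons) and 7 were found, where chance gives about 1 in 20 groups, or 2.2. Among the receptors 1 was found: Adra1a stood at 8.03 CPM in shRNA replicate 4, against 3.48 to 4.19 CPM in the other shRNA samples. The same library had 4296 CPM of summed astrocyte markers (812 to 1039 CPM in the others) and 668 CPM of endothelial markers (50.9 to 118 CPM). In shNT replicate 2 reads outside exons made up 18.6% (9.77% to 11.3% in the others), nuclear-retained noncoding RNAs summed to 15040 CPM (1671 to 3027 CPM) and oligodendrocyte markers to 2373 CPM (759 to 1199 CPM). Microglia markers summed to 107 CPM in shRNA replicate 3, against 91.5 to 93.0 CPM in the other shRNA samples.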

How the results depend on the processing

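Cnr1, Htr1a and Htr2c stayed higher in the shRNA samples under all 15 alternatives and with each of the 9 samples left out, and Adra1b stayed lower under all of them, while calls depended on the choice of test and on single samples. The number of receptors called was 1 as reported. It was 3 with DESeq2, the likelihood ratio test or limma voom, 2 without shNT replicate 2 and shRNA replicate 4, and 0 without the 3 libraries over 15% outside exons (both chosen after seeing the data), with library size only, upper quartile, the larger set of sample names alone, the share outside exons as a covariate or an offset for exon length. Genes called higher and lower over all genes were 262 and 2 as reported, 1519 and 844 with DESeq2, 1688 and 542 with the likelihood ratio test, 2301 and 618 with limma voom, 501 and 14 with no filter, and 0 and 0 in the 6 fits just named with 0 receptors called. The count lower was 1 with DESeq2 size factors or the name set as a term and 8 with a filter of 1 CPM in 4 samples, and the count higher was 678 without shNT replicate 2 and shRNA replicate 4. Other pathway genes called numbered 1 as reported, 11, 10 and 17 with those 3 tests, 3 with no filter, 2 with the stricter filter, the name set or without those 2 libraries, and 0 in the same 6 fits. With each sample left out these counts ran from 0 to 1007 higher, 0 to 410 lower, 0 to 2 receptors and 0 to 6 pathway genes, highest without shNT replicate 1 in each case, and the count higher was 0 in 5 of these fits, those lacking shNT replicate 3, 4 or 5, shRNA replicate 1, or shRNA replicate 3. The cause was not tested. In the fits with 0 genes called, by edgeR's quasi-likelihood test, between 1493 and 5360 genes had an unadjusted p under 0.05.

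The log2 fold change of Cnr1 lost its call with library size only (1.25, FDR = 0.0708), upper quartile (1.20, FDR = 0.0629), the larger name set alone (0.81, FDR = 0.243), the share of reads outside exons (1.15, FDR = 0.0831), the exon length offset (0.90, FDR = 0.0840) and without the 3 libraries (1.18, FDR = 0.138). Some receptors changed sign. Adrb1 was -0.019 with DESeq2 size factors, -0.015 with no filter, -0.020 with DESeq2, -0.092 with limma voom, -0.037 in the larger name set, -0.028 with the covariate, -0.049 without the 2 libraries and -0.20 without the 3. Oprd1 was 0.00021 with library size only, 0.39 with limma voom, 0.038 in the larger name set, 0.62 with the covariate, 0.044 without the 2 libraries and 0.22 without the 3. Oprm1 was 0.091 with limma voom, 0.34 with the covariate and 0.016 without the 3, Oprl1 was -0.021 with the name set as a term and -0.051 with the exon length offset, Htr2a was -0.0058 with the name set as a term, and Adra1a was -0.069 in the larger name set. With each sample left out the values ran from -0.24 to 0.22 for Oprd1, -0.37 to 0.062 for Oprm1, -0.15 to 0.18 for Oprl1, -0.10 to 0.069 for Adrb1 and -0.15 to 0.33 for Htr2a.

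Replicate numbers are shared by the groups. Deviations of same-numbered samples from their group means had correlations of -0.27, -0.64, 0.49 and -0.18 for replicates 1 to 4. Only shRNA replicate 3 was closest to its own number. The labels do not say whether the numbers mark pairs, and these few values cannot settle it. With a replicate block, 29 genes were called higher, 0 lower, 0 receptors and 0 pathway genes. Cnr1 then had a log2 fold change of 1.17 (FDR = 0.209), Oprl1 -0.017 and Htr2a -0.027. The median log2 fold change of all genes moved from 0.11 to between -0.0061 without the 3 libraries and 0.17 with library size only. For Oprm1, 16 reads in the shallowest case limit what can be seen.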

Other observations

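Within each sample the level per kb of exon of Cnr1 was 0.224 to 0.668 times that of Oprd1 with shNT and 0.490 to 1.77 times with shRNA, with 0.668 in shNT replicate 2 and 1.77 in shRNA replicate 4. The ratio in shNT replicate 2 was higher than in 2 of the 4 shRNA samples. Oprd1 made up 48.1% to 69.6% of the summed level of the 3 opioid receptors per kb with shNT and 52.1% to 64.9% with shRNA, lowest in the same 2 libraries. Htr2a was 1.57 to 7.40 times Htr2c with shNT and 1.42 to 3.35 times with shRNA, again lowest in those libraries. Adra1a was 0.0401 to 0.161 times Adra1b with shNT and 0.127 to 0.639 times with shRNA, where the highest value was that of shRNA replicate 4 and the other 3 lay between 0.127 and 0.137.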
